A study of Mus musculus with 61 samples.

Results

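The neurotrophin Ntf3 and the receptors Ntrk2, Ntrk3 and Ngfr were followed through the adult mouse brain. These 4 genes were taken by symbol, through the RefSeq identifier that the arrays give for each probe, from 16359 genes with such a name. Where a gene had more than 1 probe, the probe with the highest mean signal stood for it and the other was described beside it. All members had a probe, and all were well above background on most of the 61 arrays.

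The mice were males of the C57BL/6J strain, 8 weeks of age, with no mutation or treatment, and were perfused with RNAlater, a salt solution that preserves RNA. Each of 6 brains was frozen, sectioned at 5 µm in 1 direction, and divided into fractions of 200 sections, which is 1 mm of tissue, and the RNA of each fraction was hybridised to 1 single-colour Agilent array. The C and Co brains were cut coronally into 13 and 16 fractions, H and Ho horizontally into 6 and 7, and S and So sagittally into 9 and 10, with So, Co and Ho cut at a slant. Each direction thus rested on 2 mice, 1 cut straight and 1 cut obliquely, and a fraction was a slab that held every cell type at that depth. The study matched 28 fractions of the oblique brains to 28 of the straight ones by the likeness of the same arrays, so that agreement of a gene within pairs is partly built in. Fractions are named here by brain and order (C1 is the most caudal of C, H1 the most dorsal of H, S1 the left edge of S); the labels number the S fractions 2 to 10, here 1 to 9.

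Neurotrophins are secreted growth factors that support the survival, branching and synapses of neurons. BDNF, NT-3 (encoded by Ntf3) and NT-4 (Ntf5) each bind a receptor tyrosine kinase of the Trk family. NT-3 binds mainly TrkC (Ntrk3), while BDNF and NT-4 bind TrkB (Ntrk2), which also exists in a truncated form without the kinase, known from astrocytes. All of them, and their uncleaved precursors, bind p75 (Ngfr), a receptor known in the adult brain from the cholinergic neurons of the basal forebrain and, outside it, from Schwann cells.

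Ntf3 lies on chromosome 6 (chr6:126101412-126166772 in GRCm38.p6), Ntrk3 on chromosome 7 (chr7:78179986-78581034), Ngfr on chromosome 11 (chr11:95568818-95587698) and Ntrk2 on chromosome 13 (chr13:58806472-59133970). The Ntf3 probe was that of NM_008742 and the Ntrk3 probe that of NM_182809, each with 1 spot per array. Ntrk2 had 2 probes of 10 spots each, one assigned to NM_008745, which encodes the truncated receptor, and one to NM_001025074, which encodes the full-length receptor. The first was the brighter and stood for the gene. Where in the transcripts the probes lie was not analysed here, so how far each probe reads 1 form only is not known. Ngfr had 2 probes of NM_033217, one with 10 spots and above background on 61 arrays, and one with 1 spot, above background on 50 arrays and much dimmer.

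A level is given here as the log2 of a probe's signal divided by the 75th percentile of the array, so that 0 is a signal equal to that percentile and each unit is a doubling. Levels of different probes cannot be set against each other. Since every fraction holds many cell types, fewer cells of a type and less RNA per cell cannot be told apart in any of these values. Differences between pairs were tested with limma over all 36573 detected probes, with Benjamini-Hochberg adjustment and a threshold of 0.05. The error in these tests is the difference between the 2 arrays of a pair, pooled over the 28 pairs. These come from 3 pairs of mice, and slabs of 1 brain are not separate animals, so the SE and p describe the spread between matched slabs and are too small for a statement about animals. Where groups of fractions are said not to overlap, this only describes the values. The share of all detected probes without such overlap was not determined.

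The cutting directions were checked with genes of known location. Gabra6, a receptor subunit of cerebellar granule cells, peaked in C3 and Co5. Doc2g, a marker of the olfactory bulb, peaked in C13 and Co15, 7.6 and 6.7 log2 units above its median in these brains. Hcrt, which encodes the hypothalamic peptide orexin, peaked in H5 and Ho6, and Myl4, a marker of motor cortex, in H2 and Ho2. The coronal series thus ran from caudal to rostral and the horizontal series from dorsal to ventral. Over the arrays, 57.9% to 73.1% of probes were well above background and the 75th percentile signal was 740 to 1971 units.

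Each member varied over the 28 matched pairs beyond the difference between the arrays of a pair. The adjusted p was 9.84e-10 for Ntf3 (F = 14.9), 9.09e-06 for Ngfr (F = 6.33), 0.00893 for Ntrk2 (F = 2.74) and 0.0265 for Ntrk3 (F = 2.29). The other probes passed as well, the full-length Ntrk2 probe with 0.000138 and the dim Ngfr probe with 0.00175. Variation of this kind was common, since 61.3% of all detected probes passed the same test and the median F was 2.58. The truncated Ntrk2 probe and Ntrk3 were therefore close to the typical probe, whereas Ntf3 ranked 1819, Ngfr 6641 and the full-length Ntrk2 probe 9464 of 36573 by F. The range from the lowest to the highest fraction was at least 51.0-fold for Ntf3, whose lowest level is an upper bound, 14.8-fold for Ngfr, 3.97-fold for the full-length Ntrk2 probe, 2.85-fold for Ntrk3 and 2.40-fold for the truncated Ntrk2 probe. The variation of Ntrk3 did not pass in any single plane (adjusted p = 0.317 coronal, 0.373 horizontal and 0.128 sagittal). It also did not pass without the S, So, H or Ho brain (0.176, 0.222, 0.150 and 0.0576), and that of Ntrk2 did not pass without H or Ho (0.0678 and 0.0753). When fractions were paired by their own number instead of by likeness, Ntf3 alone of the members passed, the adjusted p being 0.216 for Ngfr, 0.225 for Ntrk2 and 0.126 for Ntrk3. Pairing by number joins unlike depths in places, since Gabra6 peaked in C3 but Co5 and Doc2g in C13 but Co15. A call lost there can therefore not show that the variation depends on the matching by likeness.

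Ntf3 was highest in the caudal slabs that hold the cerebellum and lowest in the olfactory bulb. In the C brain its log2 level was -4.93 in C1, -2.12 in C2, -2.45 in C3 and -2.71 in C4. It then lay between -3.22 and -4.46 from C5 to C11 and dropped to -6.05 in C12 and -7.21 in C13. The Co brain gave a similar course, with -5.33 in Co1, -3.35 in Co2, -1.56 in Co3, -1.86 in Co4, -2.29 in Co5 and, at the other end, -6.15 in Co14, -7.23 in Co15 and -5.91 in Co16. In C13 and Co15 the probe was not well above background, so that those levels are upper bounds. C1 and Co1, the slabs behind the cerebellum's peak, were below their neighbours in both brains.

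**Figure D1:**
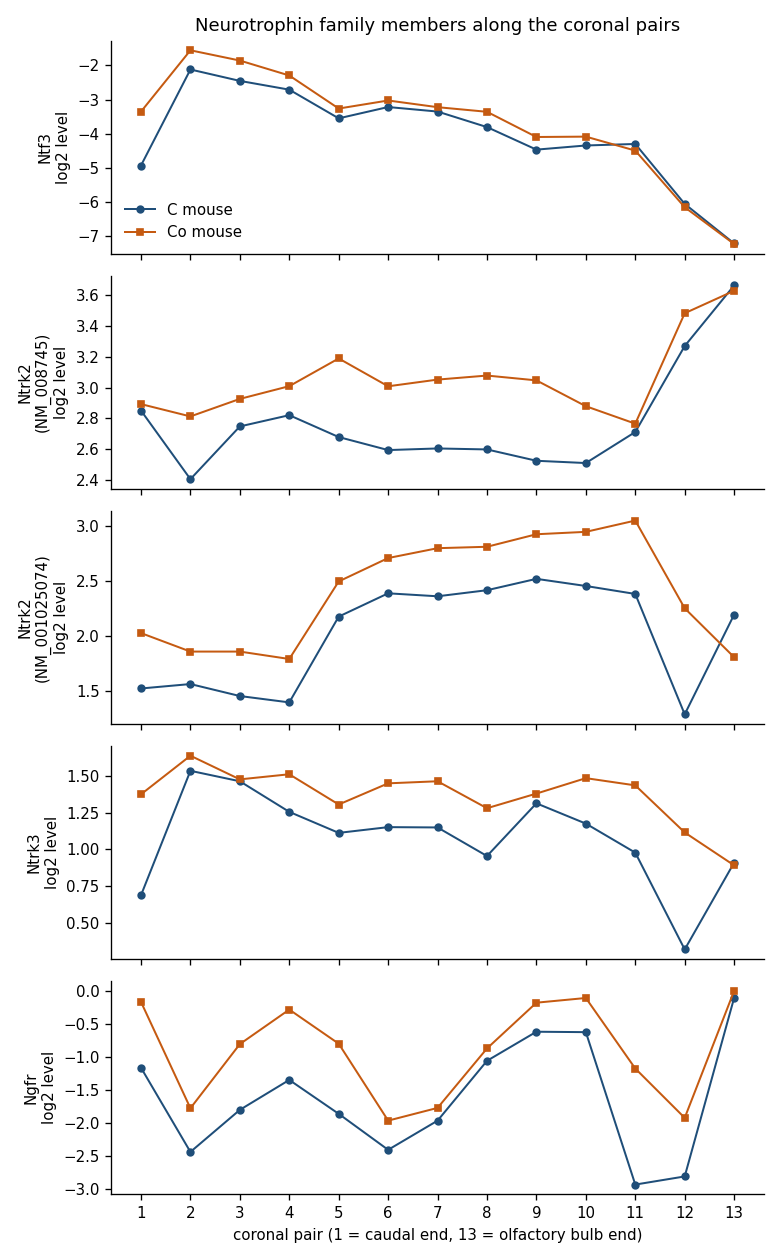
Log2 level (relative to the 75th percentile of the array) of each member along the 13 coronal pairs, from caudal (1) to the olfactory bulb end (13); circles are the C brain and squares the matched fractions of the Co brain, 1 array each. Ntf3 fell from -2.12 and -1.56 in pair 2 to -7.21 and -7.23 in pair 13, while the truncated Ntrk2 probe was highest in pair 13.

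The 4 most caudal pairs exceeded the 4 most rostral by 2.82 ± 0.20 (SE, log2) for Ntf3, a difference of at least 7.08-fold with an adjusted p of 1.69e-13. The difference was 2.42 in C and 3.22 in Co. The fold is a lower bound, since the Ntf3 probe was well above background on 6 of the 8 rostral arrays. Of all detected probes, 27.5% were higher caudally and 20.2% lower by this test, and the median difference over all of them was 0.10. The higher probes made 57.7% of these calls, but 40.6% when each array was scaled to its median and 50.7% after quantile normalization. Without the 2 most rostral pairs, where the olfactory bulb marker was highest, the difference was 1.65 (adjusted p = 9.84e-07), and within C fractions scanned on 1 day it was 1.85. The markers of cerebellum moved with Ntf3, all 3 of 3 being higher caudally in both brains, by 6.89 for Gabra6, 4.90 for Pcp2 and 7.21 for Cbln3. Other lists were also higher caudally in both brains, with 3 of 3 markers of medulla (4.25 to 7.95), 3 of 3 of cholinergic neurons (0.78 to 2.35), 2 of 2 of choroid plexus (2.06 and 2.53), 2 of 2 of dentate gyrus (0.42 and 2.17) and 4 of 4 of oligodendrocytes (1.02 to 1.76). The part of these cells and areas in the Ntf3 difference was not tested.

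Along the left-right axis Ntf3 was higher toward the sides. In S its level was -2.99, -2.70, -2.83 and -3.53 in the outer fractions S1, S2, S8 and S9, against -4.02, -3.72 and -3.90 in S4 to S6 near the midline, without overlap. In So the matched outer fractions ranged from -4.24 to -2.16 and overlapped the midline ones, which lay between -4.17 and -3.69. The difference was 0.88 ± 0.21 (SE, log2; adjusted p = 0.00254), where 9.01% of all detected probes were higher at the outside and 10.6% lower. The higher probes made 46% of these calls, but 68.3% under median scaling, where the median difference over all probes was 0.10. With fractions paired by their own number the Ntf3 difference was 0.43 and not past the threshold (adjusted p = 0.485). The 3 cerebellar markers were lower at the outside in both brains, with log2 differences of -0.39 to -0.90, while 3 of 3 cortex markers (0.86 to 1.15) and Spink8 of Ammon's horn (1.51) were higher there in both, and their part was not tested. From dorsal to ventral Ntf3 showed no difference past the threshold (0.04 ± 0.23, adjusted p = 0.961), with its highest level in H in H3 (-3.27) and its lowest in H1 (-4.67).

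Ntrk3, the receptor for NT-3, was flatter and was lowest near the ends of the coronal series. Its log2 level in C was highest in C2 (1.54) and C3 (1.46), lowest in C12 (0.32), and 0.69 in C1, with a median of 1.15 over the 13 fractions. In Co it was highest in Co3 (1.64) and lowest in Co1 (0.42) and Co16 (0.48), with a median of 1.38 over 16. The slab at the rostral end of C, C13, was at 0.91, so that the low fractions lay at or next to the ends. The caudal pairs exceeded the rostral by 0.33 ± 0.11 (SE, log2; adjusted p = 0.0109), which was 0.39 in C and 0.27 in Co. This call was lost when each array was scaled to its median (0.18, adjusted p = 0.184), without the 2 most rostral pairs (0.10, adjusted p = 0.568), without C12 (adjusted p = 0.0619) or Co2 (adjusted p = 0.0556), without the whole C brain (0.27, adjusted p = 0.0569), and with slide fitted as a fixed term (0.60, adjusted p = 0.251).

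In the horizontal series the Ntrk3 values were higher in the upper than in the lower matched fractions. The level in H was 1.83 in H1, 1.83 in H2, 1.61 in H3, 1.52 in H4, 1.50 in H5 and 1.37 in H6. In Ho the matched fractions Ho2 to Ho7 gave 1.55, 1.46, 1.50, 1.32, 1.33 and 0.98. The 3 dorsal and the 3 ventral fractions did not overlap in either brain, and the difference was 0.29 in each. It did not pass the test (0.29 ± 0.12 SE, adjusted p = 0.130), but passed with the mouse as a block (adjusted p = 0.00856). With the mouse as a block the share of all detected probes called was not determined. Without that block, 5.2% of all detected probes were higher dorsally and 7.38% lower. The higher probes made 41.3% of these calls, but 55.5% under median scaling. No difference was called between the outer and midline fractions (-0.02 ± 0.11, adjusted p = 0.991).

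The 2 probes of Ntrk2 had different courses through the brain. The truncated-form probe was nearly flat over most coronal fractions and rose in the bulb. In C it lay between 2.40 and 2.85 from C1 to C11 and reached 3.27 in C12 and 3.67 in C13. In Co it lay between 2.76 and 3.19 from Co2 to Co13, with 3.36 in Co1 and 3.48, 3.63 and 3.58 in Co14 to Co16. The bulb end held the highest levels of this probe in both brains, and in Co the caudal end was also high.

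The full-length probe instead stepped up between C4 and C5 and between Co5 and Co6, and fell again in the bulb. In C it was 1.52, 1.56, 1.46 and 1.40 in C1 to C4, then 2.18 in C5 and 2.36 to 2.52 from C6 to C11, before 1.29 in C12 and 2.19 in C13. In Co it was 1.57 to 2.03 from Co1 to Co5, 2.49 in Co6, rose to 3.05 in Co12, and ended at 2.25, 1.81 and 1.35 in Co14 to Co16. No fraction from C5 to C11 overlapped those from C1 to C4, and the same held for Co6 to Co13 against Co1 to Co5. These groups were drawn from the course itself, so their lack of overlap only describes the step. The caudal pairs were below the rostral by -0.61 ± 0.14 (SE, log2; adjusted p = 0.000547) for this probe and by -0.31 ± 0.10 (adjusted p = 0.0139) for the truncated-form probe. With slide fitted as a fixed term the first difference was -0.36 and was not called (adjusted p = 0.609). Without the 2 most rostral pairs the difference was -1.02 (adjusted p = 1.07e-05) for the full-length probe and that of the truncated-form probe turned to 0.092 (adjusted p = 0.586). The call of the truncated-form probe was also lost without C2 (-0.26, adjusted p = 0.0509) or the whole C brain (adjusted p = 0.0588), and with the slide as a random (adjusted p = 0.0670) or a fixed block (0.664).

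The courses ran in opposite directions from dorsal to ventral. The truncated-form probe gave 2.94, 2.45, 2.73, 2.99, 3.03 and 3.28 in H1 to H6 and 2.55, 2.59, 2.82, 2.93, 3.01 and 3.36 in Ho2 to Ho7. The full-length probe gave 3.28, 3.23, 2.96, 2.85, 2.84 and 2.65 in H1 to H6 and 3.10, 2.80, 2.59, 2.57, 2.54 and 2.22 in Ho2 to Ho7. Neither probe's dorsal fractions overlapped its ventral ones in either brain, though how many of all detected probes do likewise was not determined. The dorsal minus ventral difference was -0.42 ± 0.12 (SE, log2; adjusted p = 0.0147) for the truncated-form probe and 0.38 ± 0.16 (adjusted p = 0.139) for the full-length probe, the latter passing with the mouse as a block (adjusted p = 0.00867). How many of all detected probes pass with that block was not determined. The difference of the first probe was not past the threshold without H2 (adjusted p = 0.0513), Ho2 (0.0692), the H brain (0.219) or the Ho brain (0.262), or with slide as a fixed term (-0.53, adjusted p = 0.224).

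On each array the full-length probe minus the truncated-form probe was also taken, centred on its mean over the 61 arrays, a quantity chosen after the values were seen and given with no test. It was between 0.80 and 1.36 in H1 to H3 and between -0.05 and 0.44 in H4 to H6, and between 0.35 and 1.13 in Ho2 to Ho4 and between -0.56 and 0.22 in Ho5 to Ho7. Its lowest values were -1.40 in C12 and -1.65 in Co16, in the bulb. The caudal end was low too, with -0.84 to -0.26 in C1 to C4 and -1.21 in Co1, against 0.58 in C9 and 0.86 in Co12. The caudal minus rostral difference of this quantity was -0.26 in C and -0.35 in Co, with overlap in both. The 2 probes thus changed unequally from dorsal to ventral and within the coronal course, but not clearly between its ends. From side to side neither probe passed (-0.11 ± 0.11, adjusted p = 0.624, for the truncated-form and 0.30 ± 0.15, adjusted p = 0.185, for the full-length probe), although the latter passed with the mouse (adjusted p = 0.0187) or the scan day (0.0139) as a block. The shares of all detected probes passing with these blocks were not determined. The full-length probe was highest in the leftmost pair of the sagittal series (3.14 in S1 and 3.12 in So2). Of 6 astrocyte markers, 2 were higher and 3 lower dorsally in both brains. Gfap differed by -0.95 and Aqp4 by -0.16, while Slc1a3 differed by 0.25, so that the list moved with no single direction.

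Ngfr had the course with the most turns. From dorsal to ventral it rose steeply, from -2.95 in H1 through -1.13, -0.94 and -0.22 to 0.42 in H5, with -0.56 in H6. The Ho brain gave -3.02 in Ho1, then -2.32, -1.63, -0.85 and -0.32, 0.32 in Ho6 and -0.69 in Ho7. The fifth of the matched depths was the highest in both brains, and the dorsal fractions did not overlap the ventral ones. The dorsal pairs were below the ventral by -1.46 ± 0.28 (SE, log2), a 2.76-fold difference with an adjusted p of 0.000396, and the dim Ngfr probe gave -0.46 (adjusted p = 0.0870). Without the H brain the adjusted p was 0.0849, and with slide fitted as a fixed term the difference was -1.57 (adjusted p = 0.134).

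**Figure D2:**
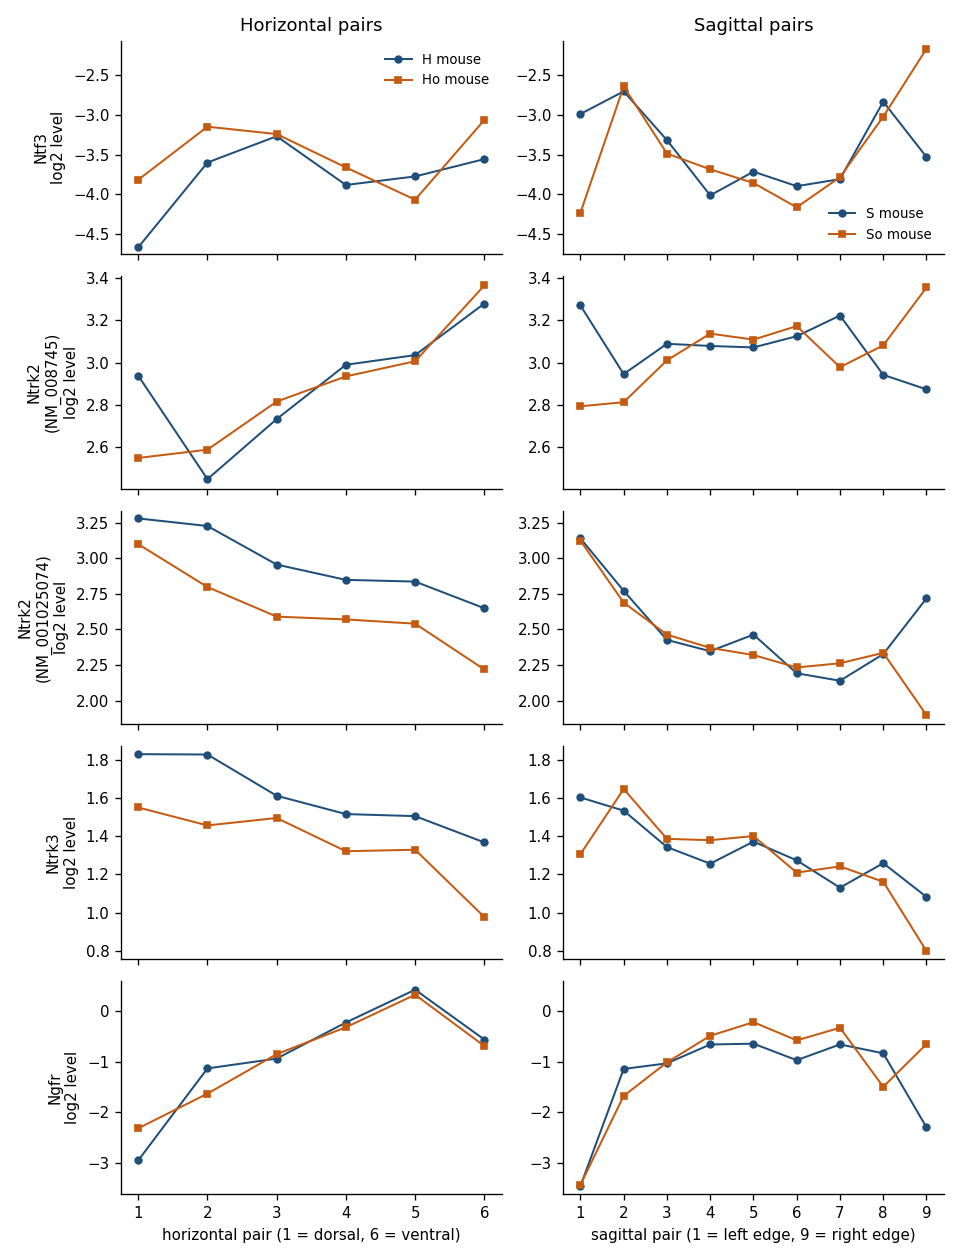
Log2 level of each member along the 6 horizontal pairs (left, dorsal to ventral) and the 9 sagittal pairs (right, left to right edge); circles are the straight and squares the oblique brain of each plane, 1 array each, with 1 scale for both panels of a row. Ngfr rose from -2.95 in H1 to 0.42 in H5 while the full-length Ntrk2 probe went from 3.28 to 2.65 in H6.

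Ngfr was lowest in the leftmost sagittal pair. Its level was -3.46 in S1 and -3.43 in the matched So2, with -1.91 in So1, which had no partner, while the right edge gave -2.30 in S9 and -0.65 in So10. Near the midline S4 to S6 gave -0.66, -0.64 and -0.97, and So5 to So7 gave -0.49, -0.22 and -0.58. The outer fractions overlapped the midline ones in S, where they ranged from -3.46 to -0.83, and did not in So, where the nearest was So10. The outer fractions were lower by -1.28 ± 0.26 (SE, log2), a 2.43-fold difference with an adjusted p of 0.000475. Within S fractions scanned on 1 day, which leaves out S1, the difference was -0.67, and the dim probe gave 0.14 (adjusted p = 0.690). With fractions paired by their own number, the outer difference was -1.20 for Ngfr (adjusted p = 0.111) and 0.43 for Ntf3 (adjusted p = 0.485), neither past the threshold.

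Along the coronal axis Ngfr had 4 high points. In C the level was -1.16 in C1, -1.35 in C4, -0.62 in C9, -0.63 in C10 and -0.10 in C13, with -2.44 in C2, -2.41 in C6, -2.94 in C11 and -2.82 in C12 between them. In Co the high points were -0.07 in Co1, -0.28 in Co5, -0.11 in Co11 and 0.0018 in Co15, with -1.78 in Co3, -1.97 in Co7 and -2.94 in Co13 between them. With these alternations the caudal and rostral ends did not differ by the test (-0.01 ± 0.24, adjusted p = 0.972).

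Markers of cells that carry p75 were set beside these values. All 3 cholinergic markers were lower dorsally in both brains, by -0.95 for Chat, -2.34 for Slc18a3 and -3.48 for Slc5a7, and all were also lower at the outside (-0.64, -2.07 and -2.79). Along the coronal axis all 3 were higher caudally in both brains (0.78, 2.35 and 2.33), where Ngfr gave -0.01. Their summed level was 4.09% to 27.1% of the 75th percentile in the dorsal fractions and 53.1% to 77.2% in the ventral ones, without overlap. The Schwann cell marker Prx was also lower dorsally (-1.29) but higher caudally (1.59). The 4 oligodendrocyte markers were lower dorsally by -0.65 to -0.93 and higher caudally by 1.02 to 1.76. Other lists were lower dorsally in both brains as well. They included hypothalamus (2 of 2, -6.04 and -6.73), medulla (3 of 3, -1.81 to -5.04) and Slc6a3 of dopamine neurons (-5.50). Olfactory bulb (3 of 3), pituitary (3 of 3) and choroid plexus (2 of 2) went the same way. Cerebellum and cortex were higher dorsally (3 of 3 each). At the outside other lists were also lower in both brains. They included oligodendrocytes (4 of 4, -0.66 to -1.16), medulla (3 of 3, -1.69 to -3.54), hypothalamus (2 of 2, -4.99 and -5.10), thalamus (2 of 2, -2.42 and -2.84) and Slc6a3 (-4.64). Olfactory bulb, cerebellum and pituitary (3 of 3 each) and choroid plexus and dentate gyrus (2 of 2 each) went the same way. Cortex (3 of 3) and Spink8 were higher there. The part of these cells and areas in the Ngfr differences was not tested.

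**Figure D3:**
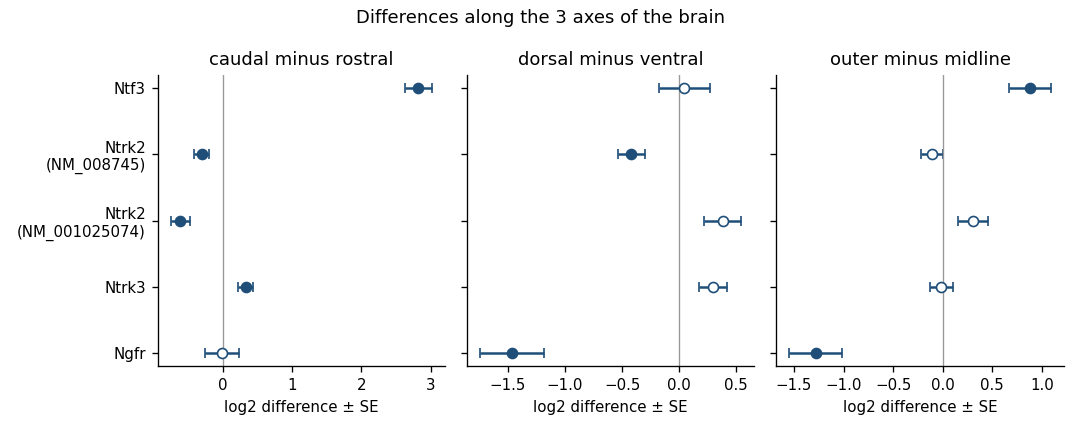
Log2 difference between the ends of each axis for the 5 main probes, as points with bars of 1 SE from limma; filled points passed an adjusted p of 0.05. Ntf3 stood 2.82 higher caudally and 0.88 higher at the outside, and Ngfr 1.46 lower dorsally and 1.28 lower at the outside.

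The order of the 28 pair means was rarely firm from 1 rank to the next. The SD within pairs was 0.40 for Ntf3, 0.20 for the truncated and 0.28 for the full-length Ntrk2 probe, 0.21 for Ntrk3 and 0.50 for Ngfr. Of 27 gaps between neighbours, those above this SD numbered 2 for Ntf3, both at the low end (coronal pairs 11 to 12 and 12 to 13), 1 for the truncated Ntrk2 probe (between its top coronal pairs 13 and 12), 1 for Ngfr (above its lowest, sagittal pair 1), and 0 for Ntrk3 and for the full-length Ntrk2 probe. The highest pair of Ntf3, coronal pair 2 at -1.84, and the next, coronal pair 3 at -2.15, did not differ beyond their spread.

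The mice of a plane differed for Ntrk2 (adjusted p = 0.00158), Ntrk3 (8.38e-05) and Ngfr (0.000718) but not past the threshold for Ntf3 (0.0979), where 63.1% of all detected probes passed. With the slide as a random block none of these members was called (adjusted p = 0.191 for Ntrk2, 0.100 for Ntrk3 and 0.350 for Ngfr). In the coronal plane Co exceeded C by 0.29 for the truncated and 0.40 for the full-length Ntrk2 probe, by 0.29 for Ntrk3, by 0.72 for Ngfr and by 0.35 for Ntf3. In the horizontal plane Ho was below H by -0.33 for the full-length Ntrk2 probe (adjusted p = 0.0690) and by -0.25 for Ntrk3 (adjusted p = 0.0665). Without either coronal brain the test could compare the other planes only, and the adjusted p was 0.954 for Ntrk2 and 0.653 for Ngfr, but 0.0143 for Ntrk3 and 0.0261 for the full-length Ntrk2 probe. The Co arrays and the C arrays, C13 apart, were scanned on different days, so mouse, slant of the cut and scan day cannot be told apart.

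Of the other neurotrophins, Bdnf was lower caudally than rostrally, with a difference of -0.45 (adjusted p = 0.000773), and higher dorsally than ventrally, by 0.68 (adjusted p = 0.000199), with its highest level in Ho1. Along the coronal axis it was low at both ends and lowest in the bulb. Its log2 level was -0.61 in C1, 0.78 in C11 and -0.95 in C13, and -0.67 in Co1, 1.05 in Co13 and -0.88 in Co15. Ntf5, the gene of NT-4, did not vary past the threshold (adjusted p = 0.156), and it was above background on 58 of 61 arrays.

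A list of 44 genes of neurotrophin signalling held the other ligands, p75 partners, sortilin receptors, Trk adaptors, kinases, processing enzymes and target genes. Of the 37 with a detected probe, 31 varied over the pairs, where 61.3% of all detected probes did (F with a median of 4.20, against 2.58 over all detected probes). The 2 sets differ in signal, since each listed gene was read by its brightest probe. Of all 36573 detected probes, 22323 were well above background on all arrays. The part of signal in this difference was not tested. By direction, 6 were higher and 21 lower caudally, 6 higher and 3 lower dorsally, and 11 higher and 3 lower at the outside. Over all detected probes these shares were 27.5% and 20.2%, 5.2% and 7.38%, and 9.01% and 10.6%. With each array scaled to its median, 2 were higher and 23 lower caudally, and 15 higher and 1 lower at the outside. Among the 6 with the largest F were Lingo1 and Rtn4r, which form a receptor complex with p75 for inhibitors of axon growth, the proneurotrophin receptor Sorcs2 and the activity-induced gene Egr1. Lingo1 was lower caudally (-1.71), higher dorsally (0.77) and higher at the outside (1.08), all past the threshold. Rtn4r was likewise lower caudally (-0.54) and higher dorsally (1.22) and at the outside (0.97), so that both had the sign opposite to Ngfr dorsally and at the outside. The other p75 partners of the list had no single direction. Bex3 (-0.33 dorsally and -0.14 at the outside), Maged1 (-0.14 and -0.11) and Traf6 (-0.09 and -0.27) had the sign of Ngfr on both axes. Tnfrsf19 (0.19 and 0.45) had the opposite sign on both. Arhgdia (-0.06 and 0.20) and Rhoa (-0.13 and 0.03) had it at the outside only.

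Levels were also read in the fraction where a marker of an area peaked in each of the 6 brains, minus the mean of that brain. Over 40 combinations of member and area none passed the adjusted threshold in the exact sign-flip permutation test, two-sided. The smallest p that 6 mice allow is 0.0313, and the 15 combinations with all mice on 1 side reached this p, with an adjusted p of 0.0833. How often all detected probes had the 6 mice on 1 side was not determined, so these counts only describe the members. With the median of each brain as reference in place of its mean, 7 combinations had all mice on 1 side, namely Ntf3 at dentate gyrus and cerebellum, Ntrk3 at cerebellum, and Ngfr at olfactory bulb, caudate putamen, motor cortex and Ammon's horn, so that the other counts of 6 of 6 over these 40, with all those of the truncated-form Ntrk2 probe, rest on the mean. Ntf3 was higher in 6 of 6 brains where Dsp, a marker of the dentate gyrus, peaked, by 0.66 ± 0.13 (SD, n = 6 mice), with a range from 0.53 to 0.83. It was also higher in 6 of 6 at the cerebellar marker, by 0.93 ± 0.60. The markers of dentate gyrus and cerebellum peaked in the same fraction in So and Ho, so the results share those values. At the olfactory bulb marker Ntf3 lay at or below -3.17 and -3.23 from the mean in the coronal brains, as upper bounds, and between -0.39 and 0.02 in the other 4.

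Ngfr was higher in 6 of 6 brains at the markers of the olfactory bulb (0.94 ± 0.32, SD, n = 6 mice), caudate putamen (0.84 ± 0.43), hypothalamus (0.74 ± 0.58) and thalamus (0.64 ± 0.32). It was lower in 6 of 6 at the motor cortex marker (-1.02 ± 0.75). The bulb marker peaked, outside the coronal brains, in H4, Ho5, S7 and So6, slabs that hold many other areas. The thalamic marker shared its peak fraction with the bulb marker in H, Ho and So. It shared that with the hypothalamic marker in C and Co, and the hypothalamic and caudate putamen markers peaked together in Ho. Ntrk3 was higher in 6 of 6 at the markers of cerebellum (0.26 ± 0.09), Ammon's horn (0.16 ± 0.09) and raphe nuclei (0.07 ± 0.06). The markers of cerebellum and Ammon's horn shared their peak fraction in S and H.

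For Ntrk2 the probes again parted. The truncated-form probe was lower in 6 of 6 brains at the markers of motor cortex (-0.29 ± 0.14, SD, n = 6 mice), Ammon's horn (-0.24 ± 0.15), cerebellum (-0.22 ± 0.16) and dentate gyrus (-0.19 ± 0.10), and higher in 6 of 6 at the bulb marker (0.28 ± 0.36). The full-length probe was higher in 6 of 6 at motor cortex (0.45 ± 0.21) and Ammon's horn (0.41 ± 0.15), each with an exact p of 0.0313 and an adjusted p of 0.104 when put in place of the other probe. Since both probes were read in the same fractions, these are opposite displacements in the same slabs. The markers of motor cortex and Ammon's horn peaked in the same fraction in So, H and Ho, so these areas are not separate readings there. The Ammon's horn marker also shared its peak fraction with the dentate gyrus marker in C and Co and with the cerebellar marker in S and H.

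**Figure D4:**
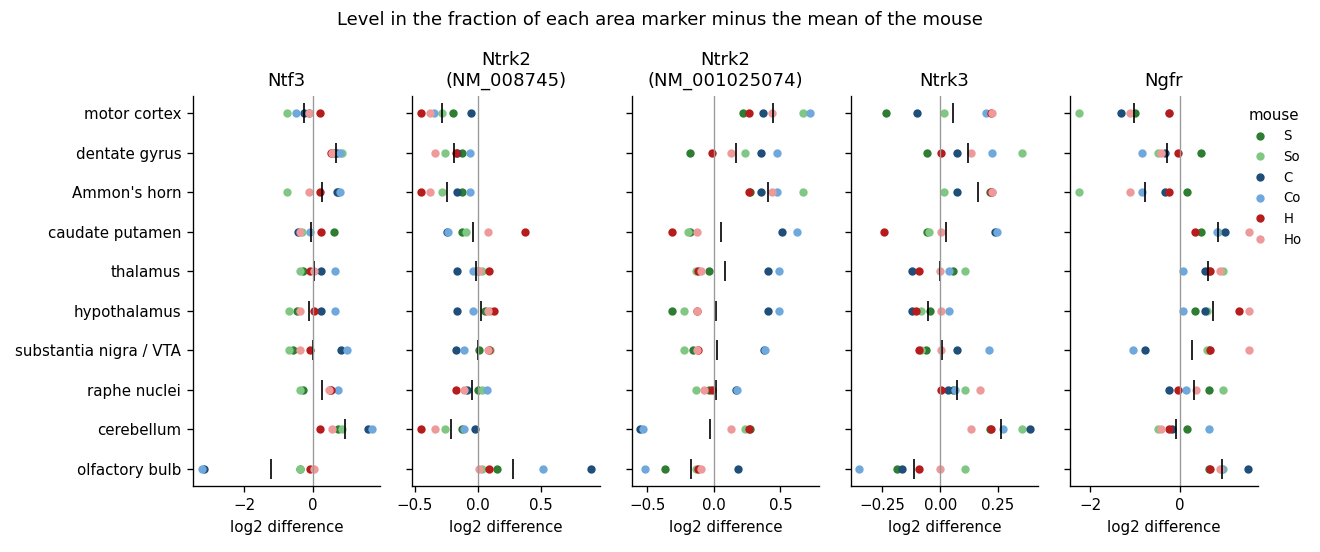
For each member (panels) and area (rows), the log2 level in the fraction where the area's marker peaked minus the mean of that brain; each dot is 1 of 6 mice and the bar their mean. Ntf3 was above 0 in all 6 mice at dentate gyrus and cerebellum, and the 2 Ntrk2 probes lay on opposite sides of 0 at motor cortex and Ammon's horn. Some rows share arrays, since the motor cortex and Ammon's horn markers peaked together in So, H and Ho. Those of dentate gyrus and cerebellum did so in So and Ho.

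The genes with the most similar course over the 61 fractions were listed among 27147 probes above background on at least 31 arrays, as a description, since fractions of 1 brain share tissue and slides. For Ntf3 they were Tbata (Pearson r = 0.89), Unc5c (0.88) and Hpcal1 (0.88). For Ntrk3 they were Cnr1, the cannabinoid receptor (0.85), Cdyl2 (0.83) and Syne1 (0.83). For the truncated-form Ntrk2 probe they were Pdlim4 (0.84), Phpt1 (0.83) and Romo1 (0.83), and for the full-length probe Gpr26 (0.94), Flrt2 (0.91) and Plxna2 (0.91), so the probes of this gene shared no gene among their top 3. For Ngfr they were Slc32a1, the vesicular transporter of GABA (0.78), Cd82 (0.73) and Gpr139 (0.72). Within planes the r of Ngfr with Slc32a1 was 0.94 over horizontal, 0.88 over sagittal and 0.61 over coronal fractions, and that of Ntf3 with Unc5c was 0.97 coronal but 0.24 sagittal. Across the members themselves Ntf3 and its receptor Ntrk3 gave r = 0.56 over the 61 fractions, with 0.74 in C, 0.75 in Co, 0.59 in S, 0.14 in Ho, -0.33 in So and -0.45 in H. The 2 Ntrk2 probes gave r = -0.22.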

How the data were processed

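RNA of 61 brain fractions from 6 mice was measured on single-colour Agilent arrays. The deposited intensity files hold, per spot, the processed signal that the authors obtained with Agilent Feature Extraction 9.1.3.1, with the background already subtracted. The array design recorded in the files is 014868. A deposited table of linear intensity, normalized per array by the authors in GeneSpring, was used as an alternative.

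Here the log2 signals of a probe's spots, without spots marked as outliers, were averaged and the log2 of the 75th percentile of the array subtracted. Control spots and probes well above background on no array were left out, which leaves 36573 probes. Groups were the 28 pairs of fractions matched by the study, 5 fractions without a partner being given as values only. limma 3.58.1 in R 4.3.3 fitted pair means, followed by Benjamini-Hochberg adjustment over all probes, and the contrasts compared the 4 caudal with the 4 rostral coronal pairs, the 3 dorsal with the 3 ventral horizontal pairs, and the 4 outer with the 3 midline sagittal pairs. Area values were tested by exact sign flips over 6 mice (Python 3.11.15). Scripts were tested on simulated data. Precision is limited by how few arrays each pair has.

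The 4 members were named with all their probes, with other ligands of the family, genes among the 6 of the pathway with the largest F, and the 3 genes most like each member. Some genes that these rules cover are not reported here. Lingo1 and Rtn4r values were singled out after they were seen, and the other p75 partners of the list were set beside them. Members and lists were chosen with earlier results of these data known. Genes were named through the RefSeq accession of a probe, apart from the marker Dsp, whose probe is named in the study's table. The 28 pairs come from 3 pairs of mice, so p-values measure the spread between matched slabs of mice cut at different angles. Alternatives were another scaling, background correction, probe filter or probe, the mouse, slide or scan day as a block, fractions paired by their own number, each plane alone, a stricter threshold, and leaving out each array or mouse.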

Additional observations from a re-analysis of the deposited data

Results flagged for a closer look

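Over 24 combinations of brain and member probe, 2 held a fraction set apart from the others of its brain by Dixon's test, where chance gives about 1 in 20. In So, Ngfr was lowest in So2 at a log2 level of -3.43, and the next lowest fraction was at -1.91, a gap that made 0.474 of the range of 10 fractions against a critical value of 0.466. The matched fraction of the other sagittal brain, S1, was also its lowest, at -3.46. In S, the dim Ngfr probe was highest in S9 at -4.11, with the next fraction at -5.31 (0.555 of the range of 9 fractions, critical value 0.493). The bright Ngfr probe in S9 was at -2.30, the second lowest of that brain after S1. Fractions of a brain are different tissue and not replicates, so such a gap is a description of the course.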

How the results depend on the processing

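Of the results and alternatives run, most kept direction and side of the threshold, among them the caudal difference of Ntf3 under every alternative. The test of variation within 1 plane gave adjusted p of 0.197 (horizontal) and 0.283 (sagittal) for Ntf3, 0.0831 (coronal) and 1.00 (sagittal) for Ntrk2, and 0.317, 0.373 and 0.128 for Ntrk3, with 2, 2 and 1 members called in the coronal, horizontal and sagittal plane against 4 in all planes. Apart from changes of scaling and normalization, the share of all detected probes called under the alternatives was not determined. The counts of calls in this section therefore only describe the members.

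When fractions were paired by their own number, which joins unlike depths in places, the calls were 1 for variation, 1 caudal, 1 dorsal, 0 outer and 1 between mice, against 4, 3, 2, 2 and 3. The share of all detected probes called with this pairing was not determined. Ntf3 then gave -0.19 dorsally and 0.43 at the outside (adjusted p = 0.485). Ntrk2 gave 0.225 for variation, -0.15 caudally (0.318), -0.26 dorsally (0.339) and 0.0756 between mice. Ntrk3 gave 0.126 for variation and 0.13 caudally (0.405). Ngfr gave 0.216 for variation, 0.16 caudally, -1.20 at the outside (0.111) and 0.344 between mice.

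With the mouse as a replicate block, the pairing of fractions in the same fit, Ntrk3 dorsally passed at 0.29 (adjusted p = 0.00856), as it did with the scan day as a block (0.0185). Ngfr caudally turned to 0.070 with the scan day as a block, and no other call on the members' main probes was changed by the mouse block. With the slide as a random block Ntrk2 caudally was -0.31 (0.0670), and no member was called between mice (0 calls; 0.191 for Ntrk2, 0.100 for Ntrk3 and 0.350 for Ngfr). With the slide as a fixed block Ntrk2 was -0.35 caudally (0.664) and -0.53 dorsally (0.224), Ntrk3 0.60 caudally (0.251) and Ngfr -1.57 dorsally (0.134), which left 1 caudal call and 0 dorsal.

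Median scaling, and the table normalized by the authors, gave 0.0033 and 0.0043 for Ntrk2 at the outside, 0.18 and 0.18 for Ntrk3 caudally (0.184 and 0.185), and 0.0929 and 0.0937 for the difference of Ntrk3 at the outside (adjusted p = 0.675 and 0.671). Normexp correction with quantile normalization gave Ntf3 0.0421 between mice. At an adjusted p threshold of 0.01, Ntrk2 caudally (-0.31, 0.0139) and dorsally (-0.42, 0.0147) and Ntrk3 in variation (0.0265) and caudally (0.33, 0.0109) were not called, leaving 1 caudal and 1 dorsal call. With the rostral end cut to 2 pairs, an alternative added after the data were seen, Ntrk2 gave 0.092 (0.586) and Ntrk3 0.10 (0.568), leaving 1 caudal call. The other Ntrk2 probe gave 0.38 dorsally and 0.30 at the outside, and 0.45, 0.41, 0.17 and -0.17 at motor cortex, Ammon's horn, dentate gyrus and olfactory bulb. The dim Ngfr probe gave 0.062 caudally, -0.46 dorsally (0.0870), 0.14 at the outside (0.690), 0.499 between mice and 0.063 at motor cortex. With the median of each brain as reference, 7 area combinations had all mice on 1 side instead of 15.

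Leaving out each array or mouse, the lowest and highest values were -0.11 and 0.20 for Ntf3 dorsally, and adjusted p of 0.0201 and 0.568 for Ntf3 between mice. For Ntrk2 they were 0.00423 and 0.0753 (variation), -0.36 and -0.26 (caudal), -0.49 and -0.36 (dorsal), and 0.000382 and 0.954 (mice). For Ntrk3 they were 0.0018 and 0.222 (variation), 0.23 and 0.43 (caudal), 0.23 and 0.36 (dorsal), and -0.10 and 0.069 (outer). For Ngfr they were -0.23 and 0.21 (caudal), -1.57 and -1.36 (dorsal), and 0.000105 and 0.653 (mice). Calls over the 4 members ran from 2 to 4 (variation), 1 to 3 (caudal), 0 to 3 (dorsal) and 1 to 4 (mice). Leaving out 1 mouse leaves 1 sample per pair of its plane, which is assumed to vary like the others. The cause of these changes was not tested.

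Each pair holds 2 arrays from mice cut at different angles, and the Ntf3 probe was not well above background in C13 and Co15, which limits how low it can be read there.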
